A study of Homo sapiens with 12 samples.

Results

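The genes described here encode 10 enzymes that make serine, one-carbon units and asparagine. They are PHGDH (ENSG00000092621), PSAT1 (ENSG00000135069) and PSPH (ENSG00000146733) of serine synthesis, SHMT1 (ENSG00000176974) and MTHFD1 (ENSG00000100714) of the cytosolic folate pathway, SHMT2 (ENSG00000182199), MTHFD2 (ENSG00000065911), MTHFD1L (ENSG00000120254) and ALDH1L2 (ENSG00000136010) of the mitochondrial folate pathway, and ASNS (ENSG00000070669), asparagine synthetase. They were chosen by name and each matched 1 of the 57773 Ensembl identifiers in the count files. All 10 passed the filter on low counts, which left 14714 genes, and the lowest count of any of them in any library was 203. RNA was counted in 12 libraries of T47D, an estrogen receptor-positive human breast cancer cell line, in 4 groups of 3. All 4 groups carry a doxycycline-inducible hairpin (shPSMD2) against PSMD2, which belongs to the 19S regulatory particle of the proteasome. In Lo19S cells the hairpin was switched on over 3 days by doxycycline at 0.2 µg/ml, which was then withdrawn for 24 h, whereas controls were uninduced. Both then received either DMSO, the solvent, or 20 nM bortezomib, a proteasome inhibitor, for 16 h. The labels name 1 hairpin and give doxycycline to the Lo19S groups alone, so the knockdown and the doxycycline cannot be told apart.

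Serine is made from the glycolytic intermediate 3-phosphoglycerate by PHGDH, PSAT1 and PSPH in turn. SHMT1 in the cytosol and SHMT2 in mitochondria cleave serine to glycine and pass its side-chain carbon to tetrahydrofolate. In mitochondria MTHFD2 and MTHFD1L oxidise that carbon and release it as formate, ALDH1L2 oxidises it to carbon dioxide while making NADPH, and in the cytosol MTHFD1 takes formate up again for purine and thymidylate synthesis. ASNS makes asparagine from aspartate and glutamine. Several of these genes, ASNS above all, are known targets of ATF4, the transcription factor of the integrated stress response, which cells raise when amino acids are short or misfolded proteins accumulate.

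Library totals ran from 7376597 to 15003480 counts. Levels below are in CPM, the count relative to the library total after TMM scaling (trimmed mean of M-values), and folds are on the log2 scale with an approximate standard error (SE). A gene was called where the Benjamini-Hochberg adjusted p of edgeR's quasi-likelihood test over all 14714 genes was below 0.05. Nothing in the labels ties the 3 libraries of a group to separate cultures, and the p-values cover only the spread among these libraries, which may be technical. PSMD2 was at 408, 392 and 417 CPM in control and 183, 189 and 184 CPM in Lo19S cells with DMSO, and at 1509, 1510.4 and 1528 CPM and 541, 546 and 539.6 CPM with bortezomib, so each Lo19S group was below its control and both rose with the drug. The third control library with DMSO (control DMSO replicate 3) was the least like its group: comparing counts gave a chi-square over its degrees of freedom of 3.98 and 4.36 with this library, and of 1.16 to 2.01 for each other pair within a group. The number of the 10 enzymes called was the same in every comparison without this library. All 9 luminal markers reached 1 CPM with DMSO and 8 of 9, all but TFF1, with bortezomib, and their summed level was 6279 to 6380 CPM (control) and 5495 to 5572 CPM (Lo19S) with DMSO and 2879 to 2966 and 2845 to 2991 CPM with bortezomib. In each state 7 of the 9 fell with bortezomib and 2 rose. Of all genes 42.2% fell and 39.2% rose in control and 39.7% and 37.8% in Lo19S cells. In control cells PGR went from 1094 to 50.2 and ESR1 from 245 to 28.2 CPM, whereas KRT18 went from 575 to 1012 and EPCAM from 153 to 298 CPM. Of 6 fibroblast markers, COL1A1 and LUM reached 1 CPM and the sum was at most 69.7 CPM, against 2.33 CPM for leukocyte and 0.372 CPM for endothelial markers.

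Per kilobase of transcript, SHMT2 was the most abundant of the 10 in every group, at 108 ± 2.92 CPM per kb (SD, n = 3) in control cells with DMSO. MTHFD1 followed at 98.6 ± 0.834, then MTHFD2 at 51.5 ± 1.48, PHGDH at 48.2 ± 1.24, PSAT1 at 39.9 ± 1.51 and SHMT1 at 33.0 ± 0.928 CPM per kb. PSPH at 16.98 ± 0.380 and ASNS at 16.96 ± 1.13 CPM per kb had overlapping ranges, and MTHFD1L at 7.14 ± 0.338 and ALDH1L2 at 5.68 ± 0.591 CPM per kb stood last. Lo19S cells with DMSO had the same first 6 places, with ASNS and PSPH again overlapping. With bortezomib the order was different. ASNS moved from the 8th place to the 3rd in control cells, at 70.4 ± 1.22 CPM per kb, and from the 7th to the 2nd in Lo19S cells, at 94.0 ± 3.18 CPM per kb. SHMT1 moved from the 6th place to the 9th in both states and MTHFD1 from the 2nd to the 4th in control and the 5th in Lo19S cells. The ranges of MTHFD1 and PSAT1 in control cells and of PSPH and MTHFD1L in Lo19S cells overlapped with bortezomib, and all other neighbours in the 4 orders were apart. These levels use the longest principal transcript of each gene in GENCODE release 29, which can differ from the gene models that were counted. The order depends on these lengths.

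**Figure D1:**
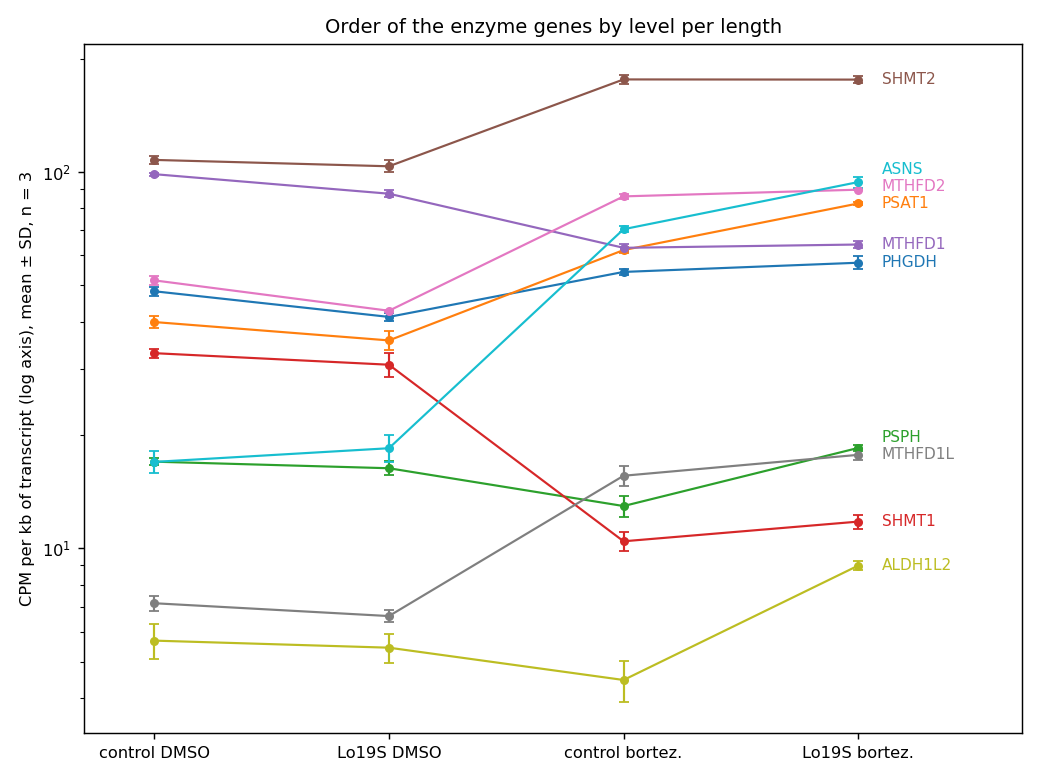
Mean CPM per kilobase of transcript (log axis, error bars SD, n = 3) of the 10 enzyme genes in the 4 groups. SHMT2 stays at the top, ASNS climbs from 16.96 to 70.4 CPM per kb between control cells with DMSO and with bortezomib, and SHMT1 drops from 33.0 to 10.4.

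The response to proteasome inhibition was read as bortezomib against DMSO, once within each state. In both states ASNS, PSAT1, SHMT2, MTHFD2 and MTHFD1L rose and the cytosolic enzymes SHMT1 and MTHFD1 fell. ALDH1L2 fell in control cells and rose in Lo19S cells. PSPH did so too, but its Lo19S response turned to -0.10 with library totals. In control cells 6 of the 10 rose and 4 fell, against 39.2% and 42.2% of all genes tested (81.4% called in either direction), with a median log2 fold change of 0.40 against -0.04 over all genes. In Lo19S cells 8 of 10 rose and 2 fell, against 37.8% and 39.7% of all genes (77.5% in either direction), with a median of 0.75 against -0.02. Bortezomib and DMSO libraries did not overlap for any of the 10 in either state, as for 81.1% of all genes in control and 79.2% in Lo19S cells, so being called does not set the enzymes apart. Scaling by library totals in place of TMM moved the median of all genes by -0.38 in control cells and by -0.29 in Lo19S cells, and the share of called genes that were higher from 48.1% to 30.5% and from 48.7% to 32.0%. On that scale 5 of the enzymes rose and 5 fell in control cells, where 3717 of all genes tested rose and 8452 fell. In Lo19S cells 7 of the enzymes rose and 2 fell, against 3731 and 7918 of all genes tested. In bulk RNA, fewer cells with a transcript and less of it per cell cannot be told apart.

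ASNS, which makes asparagine, had the largest response of the 10. In control cells it was at 37.2, 42.5 and 40.2 CPM with DMSO and at 164.0, 164.5 and 169 CPM with bortezomib. In Lo19S cells it was at 39.4, 45.4 and 45.5 CPM with DMSO and at 222, 214 and 229 CPM with bortezomib. Every bortezomib library lay far above every DMSO library, and the Lo19S bortezomib libraries were the highest. The rise was 4.17-fold in control cells (log2 2.06, SE 0.055, adjusted p = 1.11e-34) and 5.13-fold in Lo19S cells (log2 2.36, SE 0.053, adjusted p = 1.44e-37), higher than the fold change of 96.1% and 98.1% of the genes tested. The pseudogene ASNSP1 held between 4.16% and 7.60% as many counts as ASNS and rose by 2.20 and 2.57, so part of either count may belong to the other.

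RefSeq (GRCh38.p14) start sites were at hand for 7 of the 10 genes, with 11 windows of 250 bases before a start. They were searched on both strands for the core of the amino acid response element that ATF4 binds with C/EBP partners (TGATGNAA), for the E-box CACGTG and for the CCAAT box, motifs that do not overlap each other in these windows. The response element core was found before ASNS and before MTHFD1L, and in no window of PHGDH, PSAT1, SHMT1, MTHFD1 or MTHFD2, against 3.14% of all 35116 such windows and 2.44% of the 10642 tested genes with a window. The ASNS stretch and the MTHFD1L stretch, both from genes that rose in both states, are shown with 10 bases on either side of the core, 5′ to 3′ on the gene's strand, with the core in capitals. The first lies at chr7:97872459-97872486 (minus strand), its core at bases 68 to 61 before the start. The second lies at chr6:150866347-150866374 (plus strand), at bases 129 to 122 before one start and 90 to 83 before another, and within the transcript of a start further upstream.
ASNS: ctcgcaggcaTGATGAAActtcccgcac
MTHFD1L: ccgccggctcTGATGCAAtcgcgccggg
The windows of a gene that rose (MTHFD2, chr2:74198365-74198614, plus strand) and of the genes that fell in both states (MTHFD1, chr14:64388103-64388352, plus strand, and SHMT1, chr17:18363551-18363800, minus strand) are shown whole, as examples from a mitochondrial and both cytosolic folate enzymes. Capitals mark the CCAAT box, read on either strand (CCAAT or ATTGG), and the E-box.
MTHFD2: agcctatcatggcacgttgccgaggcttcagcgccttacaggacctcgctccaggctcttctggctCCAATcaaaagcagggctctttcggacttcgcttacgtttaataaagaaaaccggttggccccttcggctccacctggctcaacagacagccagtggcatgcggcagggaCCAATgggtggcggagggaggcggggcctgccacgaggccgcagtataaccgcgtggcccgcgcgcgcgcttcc
MTHFD1: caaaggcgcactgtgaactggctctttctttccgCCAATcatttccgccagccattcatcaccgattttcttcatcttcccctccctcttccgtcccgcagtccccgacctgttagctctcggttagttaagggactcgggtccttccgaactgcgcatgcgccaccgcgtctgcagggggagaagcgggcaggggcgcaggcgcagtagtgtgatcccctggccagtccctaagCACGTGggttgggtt
SHMT1: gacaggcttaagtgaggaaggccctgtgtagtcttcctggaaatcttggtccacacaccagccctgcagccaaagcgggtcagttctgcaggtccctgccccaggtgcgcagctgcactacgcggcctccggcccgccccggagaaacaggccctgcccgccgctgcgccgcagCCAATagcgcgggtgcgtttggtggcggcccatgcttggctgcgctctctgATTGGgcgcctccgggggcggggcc
A CCAAT box stood in the window of 6 of the 7 genes, all but ASNS, with 3 copies before PSAT1. It was in 32.0% of all windows and in 41.7% of the tested genes, and the E-box, found before MTHFD1 and MTHFD1L, in 6.34% and 11.2%. A match is a description of these letters and not evidence of binding.

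The mitochondrial enzymes of the folate pathway rose with bortezomib, apart from ALDH1L2 in control cells. SHMT2, which starts the mitochondrial pathway, was at 274, 265 and 279.95 CPM in control cells with DMSO and at 447, 458 and 435 CPM with bortezomib. In Lo19S cells it went from 265, 271 and 252 CPM to 457, 443 and 439 CPM. The responses were nearly equal, 0.71 (SE 0.036, adjusted p = 3.80e-23) in control and 0.76 (SE 0.036, adjusted p = 3.66e-24) in Lo19S cells, and no library with bortezomib overlapped one with DMSO. MTHFD2, the dehydrogenase and cyclohydrolase that follows, was at 232, 235 and 222 CPM in control cells with DMSO and at 381, 379.6 and 390.3 CPM with bortezomib. In Lo19S cells MTHFD2 went from 192, 189 and 191 CPM to 401, 398 and 400.1 CPM, a rise of 1.07 (SE 0.036) against 0.74 (SE 0.036) in control cells. Its Lo19S libraries were the lowest of all with DMSO and the highest of all with bortezomib. MTHFD1L, which releases formate, was at 25.2, 24.9 and 27.1 CPM in control cells with DMSO and at 59.5, 56.3 and 52.6 CPM with bortezomib, a rise of 1.13 (SE 0.069). In Lo19S cells MTHFD1L went from 23.1, 23.5 and 24.8 CPM to 62.8, 62.3 and 66.3 CPM, a rise of 1.43 (SE 0.068), the largest among the folate enzymes.

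ALDH1L2, which burns the one-carbon unit to make NADPH, moved in opposite directions in the 2 states. Its control libraries were at 41.8, 47.8 and 39.0 CPM with DMSO and at 30.2, 38.3 and 32.6 CPM with bortezomib, a fall with a log2 fold change of -0.34 (SE 0.081, adjusted p = 0.000206). In Lo19S cells it went from 36.9, 43.0 and 43.3 CPM to 66.3, 67.5 and 69.8 CPM, a rise of 0.73 (SE 0.072, adjusted p = 2.92e-12). The Lo19S bortezomib libraries lay above all 9 others and the control bortezomib libraries overlapped none of those with DMSO of their own state. NOPCHAP1, which overlaps ALDH1L2 on the opposite strand and whose counts were between 39.8% and 128% of those of ALDH1L2, rose by 1.11 in control and 0.86 in Lo19S cells. Without the strand setting of the counting, reads of such partners cannot be told apart, and their part in the result was not tested.

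The cytosolic enzymes fell in both states. SHMT1 was at 80.2, 79.7 and 83.9 CPM in control cells with DMSO and at 27.1, 25.8 and 24.2 CPM with bortezomib. In Lo19S cells SHMT1 went from 70.4, 81.4 and 75.3 CPM to 28.4, 30.4 and 28.1 CPM. All 6 libraries with bortezomib lay well below the lowest with DMSO, and the log2 fold changes were -1.66 (SE 0.068, adjusted p = 6.11e-27) in control and -1.39 (SE 0.066, adjusted p = 3.37e-24) in Lo19S cells. SMCR8 overlaps SHMT1 on the opposite strand, with counts between 64.8% and 367% of those of SHMT1, and rose by 0.68 and 0.46. MTHFD1, the trifunctional cytosolic enzyme, was at 308, 308 and 312 CPM in control cells with DMSO and at 202, 197 and 192 CPM with bortezomib, a change of -0.65 (SE 0.037). In Lo19S cells it went from 281, 273 and 269.98 CPM to 205, 196 and 202 CPM, a change of -0.45 (SE 0.037). Summed over genes, the cytosolic pair took 391 ± 4.87 CPM in control cells with DMSO and 223 ± 6.26 CPM with bortezomib, and the 4 mitochondrial enzymes 571 ± 2.55 and 920.2 ± 11.1 CPM (SD, n = 3).

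The balance between the compartments can be read within each library, where the scaling cancels. Per length, SHMT2 was 3.26 ± 0.046 times as abundant as SHMT1 (SD, n = 3) in control cells with DMSO and 16.9 ± 0.791 times with bortezomib. In Lo19S cells the ratio was 3.38 ± 0.237 with DMSO and 14.97 ± 0.760 with bortezomib. Reads of SMCR8 could share the SHMT1 count, and their part in this ratio was not tested. For MTHFD2 to MTHFD1 the ratio was 0.522 ± 0.019 and 1.37 ± 0.051 in control and 0.489 ± 0.0088 and 1.40 ± 0.028 in Lo19S cells. With the lengths used, 4456 bases for MTHFD2 and 3136 for MTHFD1, the mitochondrial enzyme passed from the rarer to the more abundant of the pair. A shorter MTHFD2 transcript would raise each of these ratios. Without lengths, MTHFD2 and MTHFD1 were at 229 and 309 CPM in control cells with DMSO and at 384 and 197 CPM with bortezomib. MTHFD1L to MTHFD1 went from 0.072 ± 0.0028 to 0.248 ± 0.0092 in control and from 0.076 ± 0.0042 to 0.276 ± 0.0092 in Lo19S cells. In all 3 ratios every library with bortezomib was above every library with DMSO. An exact permutation test of 3 libraries against 3 cannot go below p = 0.1, so no test was made.

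**Figure D2:**
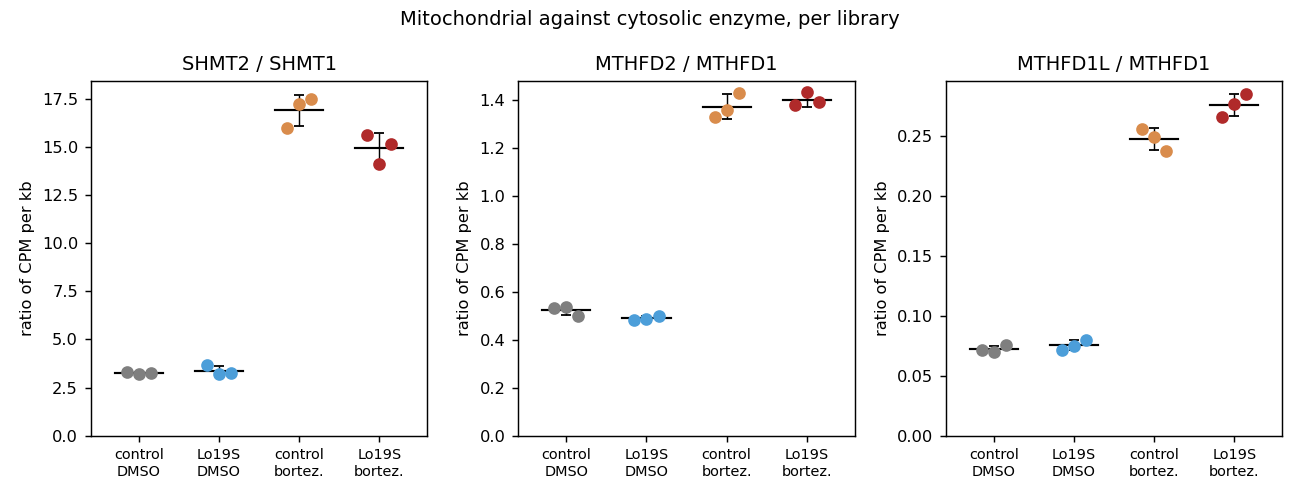
Ratio of CPM per kb of a mitochondrial to a cytosolic folate enzyme in each of the 12 libraries (points), with the mean and SD of each group of 3 (lines and bars). The ratio of SHMT2 to SHMT1 is near 3.26 with DMSO and 16.9 with bortezomib in control cells, and the ratio of MTHFD2 to MTHFD1 goes from 0.522 to 1.37.

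The serine synthesis enzymes changed less evenly. PHGDH, the first and committed enzyme, was at 122, 123 and 128 CPM in control cells with DMSO and at 140.3, 138 and 142 CPM with bortezomib. In Lo19S cells PHGDH went from 107, 109 and 103 CPM to 148, 154 and 142 CPM. The rise was 0.17 (SE 0.044, adjusted p = 0.000544) in control cells, where it turned to -0.21 with library totals, against a median of all genes of -0.42 on that scale, and missed the threshold with no filter on low counts (0.099, adjusted p = 0.104). In Lo19S cells PHGDH rose by 0.47 (SE 0.045, adjusted p = 2.71e-13).

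PSAT1, the aminotransferase of the second step, was at 88.0, 90.2 and 83.7 CPM in control cells with DMSO and at 136, 138 and 133 CPM with bortezomib, a rise of 0.63 (SE 0.048). In Lo19S cells PSAT1 went from 76.6, 83.1 and 74.4 CPM to 182, 181 and 179 CPM, a rise of 1.21 (SE 0.047). The 3 Lo19S bortezomib libraries were the highest of the 12. PSPH, the phosphatase that ends the pathway, was at 37.4, 36.0 and 37.5 CPM in control cells with DMSO and at 29.4, 29.1 and 26.1 CPM with bortezomib, a change of -0.39 (SE 0.073, adjusted p = 4.81e-06). In Lo19S cells PSPH went from 34.0, 37.1 and 35.5 CPM to 39.8, 39.9 and 41.0 CPM. The gap between the highest Lo19S library with DMSO and the lowest with bortezomib was small, and the rise of 0.18 (SE 0.068, adjusted p = 0.0138) changed to -0.10 with library totals and was lost with no filter (0.13, adjusted p = 0.179) and without Lo19S DMSO replicate 1 (0.15, adjusted p = 0.0765) or Lo19S bortezomib replicate 3 (0.17, adjusted p = 0.058). PSAT1 therefore passed PHGDH per length, with the lengths used. The ratio was 0.829 ± 0.051 in control cells with DMSO. With bortezomib it was 1.14 ± 0.038 in control and 1.44 ± 0.050 in Lo19S cells. Without lengths, PSAT1 and PHGDH with bortezomib were at 135.6 and 140.2 CPM in control and at 180.4 and 148.3 CPM in Lo19S cells. The passing in control cells thus depends on the lengths.

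**Figure D3:**
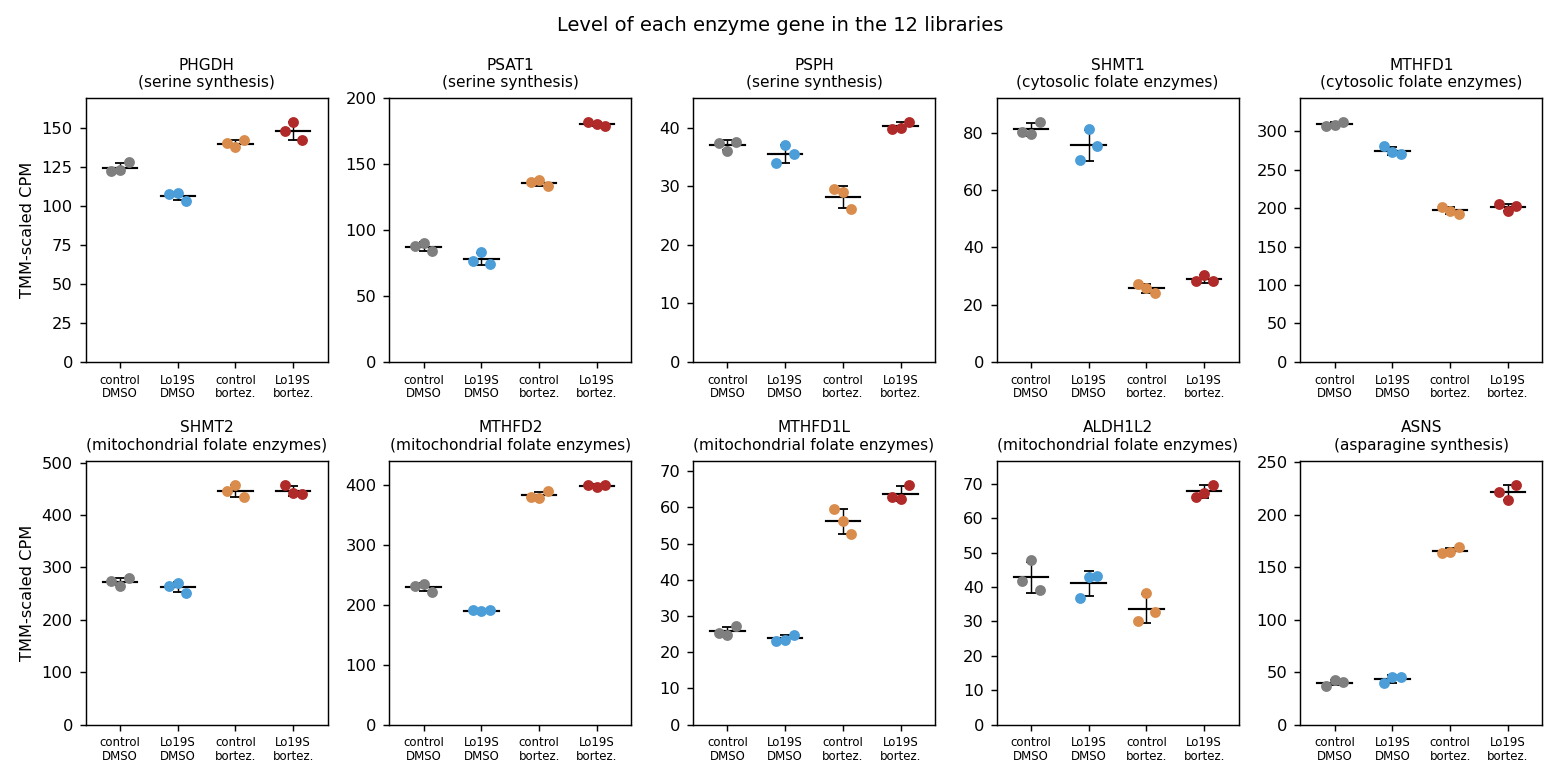
TMM-scaled CPM of each enzyme gene in the 12 libraries (points), with the mean and SD of each group of 3 (black lines and bars) and axes starting at 0. ASNS, SHMT2, MTHFD2 and MTHFD1L are higher and SHMT1 and MTHFD1 lower in every bortezomib library, and ALDH1L2 stands out at 66.3 to 69.8 CPM in Lo19S cells with bortezomib.

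Without the drug, Lo19S and control cells were close. PHGDH, PSAT1, MTHFD1 and MTHFD2 were slightly lower in Lo19S cells, and none of the 10 was called higher. The 4 called are read against 13% of all genes called lower and 11.7% called higher (24.7% in all), and the median of the 10 was -0.11 against -0.004 over all genes. MTHFD2 fell by 0.27 (SE 0.037, adjusted p = 9.18e-08), PHGDH by 0.22 (SE 0.044, adjusted p = 0.000106) and MTHFD1 by 0.17 (SE 0.036, adjusted p = 0.000203), each with groups that did not overlap. PSAT1 fell by 0.16 (SE 0.049, adjusted p = 0.0123), a call lost with only the 2 groups in the fit (adjusted p = 0.0675) and when control DMSO replicate 2 (0.054) was left out, or Lo19S DMSO replicate 1 (0.064) or 3 (0.0852). Groups that did not overlap were seen for 5 of the 10, the fifth being MTHFD1L, and for 34.4% of all genes.

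The other 6 enzymes differed by -0.12 (MTHFD1L) to 0.12 (ASNS) under DMSO, and none passed the test. ASNS was at 40.0 ± 2.66 CPM in control and 43.4 ± 3.54 CPM in Lo19S cells (SD, n = 3, adjusted p = 0.178), with overlapping libraries, and its difference of 0.19 was called without Lo19S DMSO replicate 1 (adjusted p = 0.0467). The log2 fold changes of SHMT1 (-0.10, adjusted p = 0.179), SHMT2 (-0.06, adjusted p = 0.302), PSPH (-0.06, adjusted p = 0.576) and ALDH1L2 (-0.07, adjusted p = 0.575) were not called. For each of these genes the libraries of the 2 states overlapped. The 10 genes together took between 0.139% and 0.14% of all counts in the control DMSO libraries and between 0.126% and 0.13% in the Lo19S DMSO libraries.

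**Figure D4:**
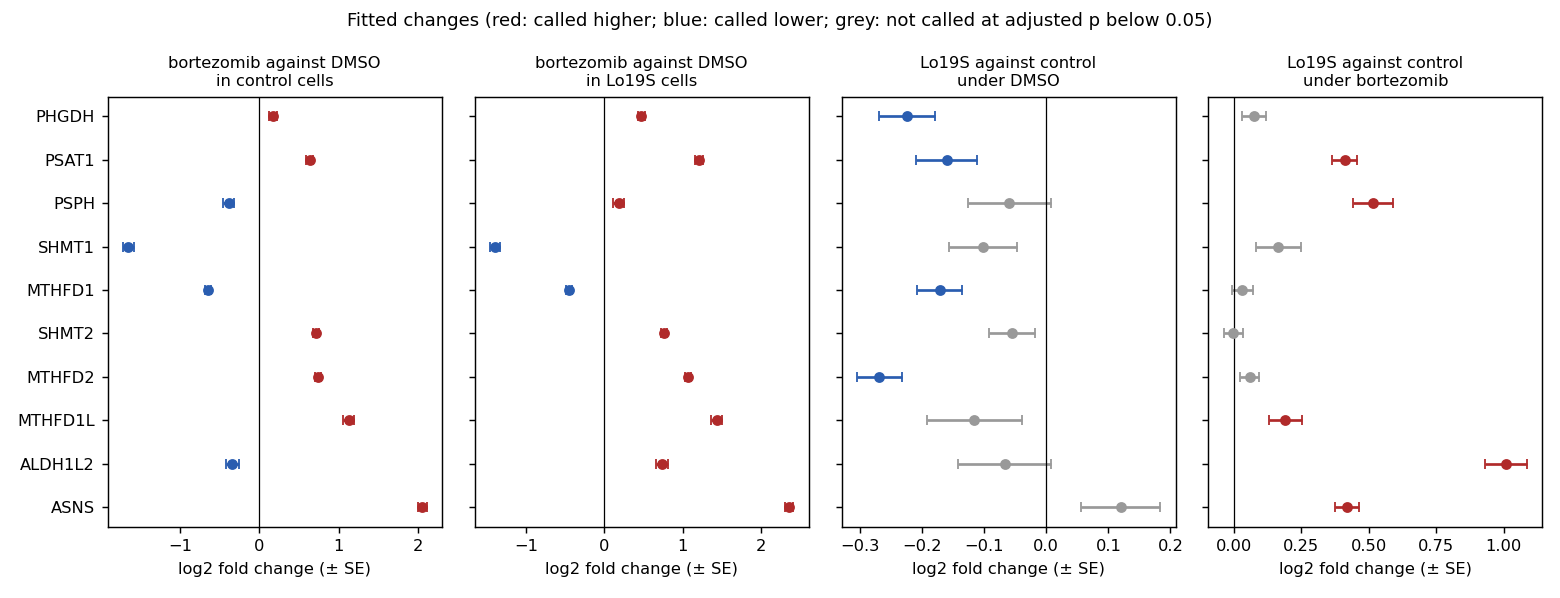
Log2 fold changes with SE of the 10 enzyme genes in 4 comparisons, with a different horizontal range in each panel. Bortezomib changes reach 2.36 for ASNS, whereas the differences between states with DMSO stay between -0.27 and 0.12 and those with bortezomib reach 1.01 for ALDH1L2.

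Lo19S and control cells were then compared under bortezomib. ALDH1L2, PSPH, ASNS, PSAT1 and MTHFD1L were higher in Lo19S cells and none was lower. The 5 called higher are read against 22% of all genes called higher and 21.2% lower (43.1% in all), with a median of 0.18 against 0.004 over all genes. ALDH1L2 was 2.01-fold higher, at 67.9 ± 1.80 against 33.7 ± 4.17 CPM (SD, n = 3, log2 1.01, SE 0.078, adjusted p = 2.58e-14), a difference larger than that of 96.8% of genes. PSPH was higher by 0.52 (SE 0.075, adjusted p = 1.34e-07), ASNS by 0.42 (SE 0.046, adjusted p = 1.51e-10) and PSAT1 by 0.41 (SE 0.045, adjusted p = 1.69e-10). For these 4 genes every Lo19S library was above every control library.

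MTHFD1L was higher by 0.19 (SE 0.062, adjusted p = 0.0105), a call lost with DESeq2 (adjusted p = 0.0652) and without control bortezomib replicate 3 (0.0932) or Lo19S bortezomib replicate 3 (0.0886). PHGDH (0.08, adjusted p = 0.171), MTHFD2 (0.06, adjusted p = 0.169), SHMT1 (0.17, adjusted p = 0.102), MTHFD1 (0.03, adjusted p = 0.56) and SHMT2 (-0.002, adjusted p = 0.969) were not called. Groups did not overlap for 8 of the 10, all but SHMT2 and MTHFD1, against 52.9% of all genes. For PHGDH the groups nearly met, at 142.315 CPM in the highest control library and 142.321 CPM in the lowest Lo19S library. Library totals moved the median of all genes by 0.11 and the share of called genes that were higher from 50.9% to 72.3%. On that scale all 10 enzymes were called higher, against 4920 of all genes tested called higher and 1883 lower. The 10 genes took between 0.137% and 0.139% of all counts in control cells with bortezomib and between 0.165% and 0.167% in Lo19S cells with bortezomib, without overlap.

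The difference between the bortezomib responses of the 2 states was tested directly, as the response of Lo19S cells minus that of control cells. It was above 0 and called for 9 of the 10 enzymes, all but SHMT2 (0.05, SE 0.051, adjusted p = 0.486), against 14.4% of all genes called in that direction and 13.4% in the other (27.8% in all). The median of the 10 was 0.30 against 0.01 over all genes. With library totals all 10 were called, against 3331 of all genes tested called in that direction and 1257 in the other. The share of called genes with a higher response went from 51.9% to 72.6%. For the enzymes that bortezomib raised in both states this was a larger rise in Lo19S cells, and for SHMT1 and MTHFD1 a smaller fall.

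ALDH1L2 had the largest difference, 1.08 (SE 0.108, adjusted p = 1.47e-10), above that of 97.8% of genes. PSPH and PSAT1 of serine synthesis followed with 0.58 (adjusted p = 1.32e-05) and 0.57 (SE 0.067, adjusted p = 2.75e-09). MTHFD2 differed by 0.33 (SE 0.051, adjusted p = 1.34e-06), PHGDH by 0.30 (SE 0.063, adjusted p = 0.000222) and ASNS by 0.30 (SE 0.079, adjusted p = 0.00292). For PHGDH and MTHFD2 the starting level in Lo19S cells was lower and the level reached with bortezomib was not called different, whereas for ASNS the starting level was not called different and the level reached was higher. With library totals the level reached was called higher for PHGDH (0.19, adjusted p = 0.000538) and MTHFD2 (0.17, adjusted p = 6.09e-05) as well. MTHFD1 differed by 0.20 (SE 0.053, adjusted p = 0.00282). Its starting level was lower in Lo19S cells too (-0.17, adjusted p = 0.000203). The level it reached with bortezomib was not called different (0.03, adjusted p = 0.56), but was called higher with library totals (0.14, adjusted p = 0.00235).

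MTHFD1L differed by 0.31 (adjusted p = 0.0157), a call lost with DESeq2 (adjusted p = 0.0604) and without control bortezomib replicate 3 (0.056) or Lo19S bortezomib replicate 3 (0.0552). SHMT1 differed by 0.27 (adjusted p = 0.0369), lost with DESeq2 (adjusted p = 0.1) and without any of Lo19S DMSO replicates 1 (0.116) and 3 (0.0545), control bortezomib replicates 2 (0.0655) and 3 (0.121) and Lo19S bortezomib replicate 2 (0.0876). These comparisons share libraries, so the values of 1 group enter several of them. The opposite-strand partner SMCR8 of SHMT1 had a difference of -0.22 (adjusted p = 0.0371), and NOPCHAP1, the partner of ALDH1L2, one of -0.25 (adjusted p = 0.103). ZBTB25, opposite MTHFD1 with 2.91% to 7.32% as many counts, had a difference of 0.89 (adjusted p = 3.50e-05). ZBTB25 changed by -1.59 in control and -0.70 in Lo19S cells with bortezomib, in the direction of MTHFD1.

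**Figure D5:**
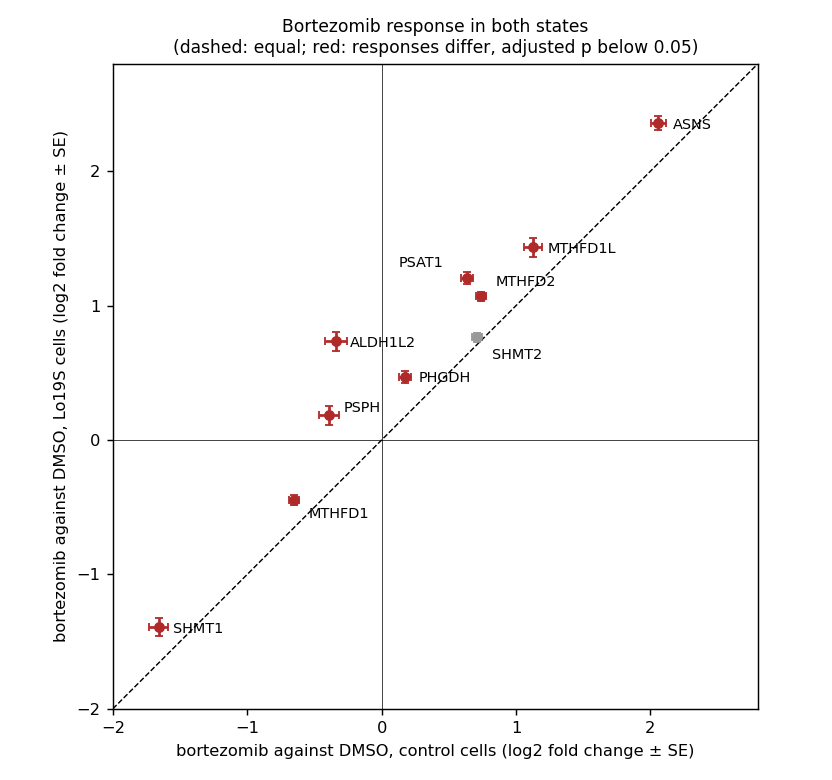
Log2 fold change with bortezomib in Lo19S cells (vertical) against control cells (horizontal) for the 10 enzyme genes, with SE bars and a dashed line of equal response. The 9 red genes have responses that differ (adjusted p below 0.05) and lie above the line, with ALDH1L2 farthest from it at a difference of 1.08, while SHMT2 (grey) lies close to it at 0.05.

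The regulators of these genes were read beside them. ATF4 was at 136 ± 10.2 CPM in control and 134 ± 3.45 CPM in Lo19S cells with DMSO, and at 342 ± 6.95 and 288 ± 13.5 CPM with bortezomib (SD, n = 3). It rose in both states (1.33, SE 0.043, and 1.098, SE 0.044). Under bortezomib it was lower in Lo19S than in control cells (-0.25, SE 0.041, adjusted p = 2.30e-06). These are levels of ATF4 RNA, and its protein was not measured. Of 13 regulators 10 rose and 2 fell with bortezomib in control cells, where 39.2% of all genes rose and 42.2% fell, and 11 rose and 2 fell in Lo19S cells, where 37.8% rose and 39.7% fell. DDIT3, a stress-induced C/EBP family member, rose by 4.02 and 4.27, ATF3 by 3.77 and 3.82, CEBPB by 1.99 and 2.05, and TRIB3, a pseudokinase that ATF4 induces, by 1.87 and 1.99. Between states under bortezomib 3 of the 13 were higher in Lo19S cells and 4 lower, against 22% and 21.2% of all genes. DDIT3 (0.37, adjusted p = 7.50e-11), TRIB3 (0.23, adjusted p = 2.12e-06) and EIF2AK1 (0.10, adjusted p = 0.0127) were higher. EIF2AK3 (-0.33, adjusted p = 0.00015), ATF5 (-0.27, adjusted p = 0.00159), ATF4 and NFE2L2 (-0.19, adjusted p = 0.00105) were lower. With library totals the calls of ATF5 (adjusted p = 0.0616) and NFE2L2 (adjusted p = 0.193) were lost. CEBPG, a partner of ATF4 in activating amino acid synthesis genes, rose by 1.32 in control and 1.61 in Lo19S cells. The difference was 0.29 (SE 0.074, adjusted p = 0.00194). CEBPG started lower in Lo19S cells with DMSO (-0.27, adjusted p = 0.000269). The level it reached with bortezomib was not called different (0.02, adjusted p = 0.72). DDIT3 also responded more in Lo19S cells (0.25, adjusted p = 0.0283), and ATF4 (-0.23, adjusted p = 0.00346) and NFE2L2, the antioxidant factor NRF2 (-0.24, adjusted p = 0.00888), responded less, 2 calls lost with library totals (-0.14, adjusted p = 0.0835, and -0.14, adjusted p = 0.121). EIF2AK3, the endoplasmic reticulum kinase that acts upstream of ATF4, rose in both states, and EIF2AK4, the kinase that senses uncharged tRNA, fell in both (-0.45 and -0.27). With library totals 9 of the 13 rose and 3 fell in each state. On that scale 3717 of all genes rose and 8452 fell in control cells, and 3731 rose and 7918 fell in Lo19S cells.

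Lists of related genes went in different directions with bortezomib. Their counts are read against the shares of all genes that rose and fell, 39.2% and 42.2% in control and 37.8% and 39.7% in Lo19S cells. Counts with library totals are read against 3717 rising and 8452 falling genes in control and 3731 and 7918 in Lo19S cells. Of 12 genes of thymidylate and purine synthesis 9 fell and 2 rose in control cells and 7 fell and 4 rose in Lo19S cells, with medians of -0.45 and -0.28. ATIC, which uses formyl-folate in the last steps of purine synthesis, changed by -1.36 in control cells and IMPDH2, of guanine nucleotide synthesis, by -1.05 and -0.96, while PRPS1, which makes the ribose-phosphate precursor, rose by 1.39 and 1.18. With library totals 11 fell and 1 rose in control cells and 10 fell and 1 rose in Lo19S cells. The bortezomib responses of this list differed upward in 6 of 12 cases, against 14.4% of all genes, led by ATIC (0.40, SE 0.064), PFAS (0.38) and GART (0.30). Under DMSO 5 of the 12 were lower and 1 higher in Lo19S cells, against 13% and 11.7% of all genes, among them PRPS2 and TYMS, thymidylate synthase, at -0.44 each.

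In the list of folate uptake, storage and transport 4 of 8 fell and 3 rose in control cells. In Lo19S cells 5 fell and 2 rose. These counts with TMM scaling are near the shares of all genes. With library totals 6 fell and 2 rose in each state. FOLR1, a folate receptor, changed by -2.74 and -2.44, SLC46A1, the proton-coupled folate transporter, by -1.99 and -2.03, and SLC19A1, the reduced folate carrier, by -1.57 and -1.69. In the other direction, SLC25A32, the mitochondrial folate carrier, rose by 0.76 and 1.01, with a difference of 0.25 (adjusted p = 0.025). SFXN1, of the same list, had a difference of -0.19 (adjusted p = 0.0412), a call lost with library totals (-0.096, adjusted p = 0.329). FPGS, which adds the glutamate tail that keeps folate in cells, rose by 0.70 and 0.63. FPGS was named after its values were seen, and the separate responses of SLC25A32 are not among the 3 largest of the list. In the glycine cleavage system, the other mitochondrial source of one-carbon units, 3 of 4 fell and 1 rose in each state, and the glycine decarboxylase GLDC changed by -1.05 and -0.57. Among 6 other folate enzymes 1 rose, MTHFD2L (0.57 and 0.32; with library totals 0.18 and 0.04, not called), and 2 fell in each state.

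In the methionine cycle and transsulfuration 7 of 10 rose and 2 fell with bortezomib in each state, but 3 rose and 4 fell with library totals. CTH, which makes cysteine, rose by 1.71 and 1.31 and CBS, which joins serine to homocysteine, by 0.86 and 1.27, the latter with a larger response in Lo19S cells (0.40, adjusted p = 0.00165). Among 14 genes of aspartate, glutamate and proline synthesis 5 rose and 4 fell in control cells and 6 rose and 4 fell in Lo19S cells, against 2 rising and 11 and 10 falling with library totals. GLUL, which makes glutamine, a substrate of ASNS, changed by -1.14 and -1.42. PRODH, of proline breakdown, changed by -4.13 and -3.39, a count that a pseudogene copy could share. Of 7 genes that use serine outside folate, 3 rose and 3 fell in control cells and 2 rose and 2 fell in Lo19S cells, and with library totals 1 rose and 4 and 5 fell.

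For PHGDH, MTHFD2 and ASNS, the genes with the most similar pattern were taken as the 5 with the smallest root-mean-square difference in centred log2 CPM over the 12 libraries. For MTHFD2 these were GOT1 (0.058), SELENOI (0.062), ARAP2 (0.063), RUNX1 (0.066) and CLIC4 (0.067). GOT1, the cytosolic aspartate aminotransferase, rose by 0.89 in control and 1.03 in Lo19S cells. For PHGDH they were MYO1D (0.056), CNOT1 (0.062), KPNA1 (0.069), NF1 (0.070) and USP11 (0.071). For ASNS the nearest genes were less close, TMEM40 (0.127), CCDC126 (0.148), GTPBP2 (0.148), MARK1 (0.157) and MAP2 (0.166), and GTPBP2 rose by 2.23 in control and 2.56 in Lo19S cells. None of these genes was another of the 10 enzymes. These are descriptions over libraries that fall into 4 groups, and many genes share a pattern set mainly by bortezomib.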

How the data were processed

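Polyadenylated RNA of 12 T47D libraries was sequenced from stranded libraries, per the labels' protocols. The deposited files hold raw counts of reads per Ensembl gene, 1 file per library, without normalization. Tools were STAR 2.5.4b and featureCounts 1.6.1 with build GRCh37, per the submitters' processing notes. Annotation release, strand setting and handling of multi-mapping reads were not given in the sources used here. Of 57773 identifiers 51996 matched a symbol.

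Counts were filtered with filterByExpr, scaled with TMM factors and fitted with edgeR 4.0.16 (R 4.3.3; robust quasi-likelihood test, 1 coefficient per group, all 12 libraries, Benjamini-Hochberg adjustment over 14714 genes). SEs were approximated by dividing the size of each log2 fold change by the root of its F statistic. The procedure was tested on simulated data. There were 5 comparisons.

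The members and gene lists were chosen with earlier results of these data known. All 10 members are named in each comparison, and of each related list at most 3 called genes with the largest change, or any regulator. Some genes of these lists are not reported here. ASNSP1 and opposite-strand partners were named after their values were seen. Levels per length used the longest principal transcript of each gene in GENCODE 29. Similar genes were ranked on log2(CPM + 0.5). Alternatives were DESeq2 1.42.0, other scalings, no filter, fewer groups, a replicate block and leaving out each library.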

Additional observations from a re-analysis of the deposited data

Results flagged for a closer look

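The bortezomib response differed between Lo19S and control cells, by the test of the difference itself, for 9 of the 10 enzymes. The differences on the log2 scale were 1.08 for ALDH1L2, 0.58 for PSPH, 0.57 for PSAT1, 0.33 for MTHFD2, 0.31 for MTHFD1L, 0.30 for PHGDH, 0.30 for ASNS, 0.27 for SHMT1 and 0.20 for MTHFD1. ALDH1L2 had responses of opposite sign in the 2 states. PSPH did too with TMM scaling, but its rise in Lo19S cells turned to -0.10 with library totals. The differences of MTHFD1L and SHMT1 were the least firm. Both calls were lost with DESeq2 (adjusted p = 0.0604 and 0.1) and in some fits with 1 library left out.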

How the results depend on the processing

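Of the 50 values of the 10 enzymes in 5 comparisons, 50 kept their direction and side of the threshold with RLE factors, 48 with no filter on low counts, 47 with DESeq2 and 42 with library totals, as did 39 of 40 with only the groups compared, which gives no fit for the difference of responses. With library totals 5 further values were called and 3 reversed: PHGDH with bortezomib in control cells (-0.21), PSPH with bortezomib in Lo19S cells (-0.10) and SHMT2 in Lo19S against control cells under bortezomib (0.11), and 10 of the 10 enzymes were called higher in that last comparison, against 5. The count of all genes called stayed within 1.5 times in each setting.

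Leaving out 1 library kept 580 values, with 14 calls lost, 1 gained and 5 uncalled values reversed: SHMT2 between states under bortezomib (0.017, 0.0081 and 0.010, in a range of -0.020 to 0.017) and ALDH1L2 under DMSO (0.010 and 0.0080, in a range of -0.13 to 0.010). Over these fits 2840 to 4603 genes and 3 to 4 enzymes were called between states under DMSO, 11659 to 12124 and 10 to 10 with bortezomib in control cells, 10872 to 11828 and 9 to 10 with bortezomib in Lo19S cells, 5368 to 7080 and 4 to 5 between states under bortezomib, and 3408 to 4981 and 7 to 9 for the difference of responses.

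Replicate numbers did not pair the libraries: deviations of the 18 same-numbered pairs correlated at -0.328 to 0.113, and 2 of 12 libraries correlated best with one of their own number. With a replicate block all 50 enzyme values kept their direction and side of the threshold. Depth limited the rarest genes most, with a lowest enzyme count of 203, and each group rests on 3 libraries of 1 hairpin.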
